A study of Homo sapiens with 6 samples.

Results

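Homologous recombination, the Fanconi anaemia pathway and the DNA damage checkpoint were followed through 36 genes, chosen by name from a list of their subunits and regulators. The list was drawn up with earlier results of these data known. Each of the 36 was found in the deposited table of 58735 genes, and each passed the filter on low counts. The cells were 786-O, an established human line of renal cell carcinoma. By the sample titles they carried short hairpin RNA, as a control in 3 libraries (sh-Control) and aimed at CBX7 in the other 3 (sh-CBX7). The headers of the deposited columns read siCBX7 instead. Whether the 3 sh-CBX7 libraries share 1 hairpin is not stated, and the labels name no further treatment, time point or allele. Only 1 line is covered, and separate cultures are not stated for libraries of 1 group, so the spread behind each p-value is that of these samples and may be technical. CBX7, a chromobox subunit of Polycomb repressive complexes, had 203, 240 and 183 counts in sh-Control and 143, 111 and 142 counts in sh-CBX7. Its transcript was lower in sh-CBX7 (log2 fold change -0.71, SE 0.13, edgeR adjusted p = 5.41e-05).

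Homologous recombination mends broken DNA by copying an intact sister sequence. Nucleases first trim the broken ends, BRCA1 and BRCA2 with their partners then prepare them for strand exchange, and helicases shape and dissolve the joined molecules. The Fanconi pathway serves crosslinks between DNA strands: a core complex of FANC proteins attaches ubiquitin to FANCD2 and FANCI, which lets the lesion be unhooked and handed to recombination. ATM and ATR are the kinases that sense breaks and stalled forks and hold the cell cycle through CHEK2 and CHEK1. Many of these genes are transcribed more strongly in dividing cells than in resting ones, and loss of several of them makes cells sensitive to crosslinking agents.

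The libraries held 16384151 to 18868874 counts, and the 36 genes together took 0.0822% to 0.0894% of all counts in sh-Control and 0.0685% to 0.0706% in sh-CBX7. These shares did not overlap between the groups. The library sh-Control replicate 1 stood furthest from the others of its group, with a chi-square per gene of 9.23 and 5.78 against sh-Control replicates 2 and 3, where other pairs within a group had 2.85 to 4.32. It was the lowest sh-Control library for 19 of the 36 genes, against 9 and 8 for sh-Control replicates 2 and 3. It was also the highest for 11, against 11 and 14 for those replicates. Levels are given as CPM, read counts scaled to a common library size with the normalization factors of edgeR.

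Kidney epithelial markers, with PAX8 and the keratins KRT8 and KRT18 among them, were tested for 14 of 15 genes and summed to 3394 to 3526 CPM in sh-Control and 3515 to 3738 CPM in sh-CBX7. These close sums held markers that moved both ways, with log2 fold changes from -1.71 to 2.17. By edgeR 5 of the 14 were higher and 5 lower, beside 26.1% and 27.2% of all tested genes. Of 17 immune markers 3 passed the filter, and PTPRC, CD2, CD3E, MS4A1 and FCGR3A had 0 counts in each library; the list summed to 61.7 to 73.2 CPM in sh-Control and 43.0 to 48.3 CPM in sh-CBX7, mostly LAPTM5. Endothelial markers summed to 78.2 to 94.2 and 124 to 135 CPM, mostly EGFL7, with CDH5 and EMCN at 0 in each library. Of 5 tested endothelial markers 3 were higher and 0 lower, beside the same shares of all tested genes. Fibroblast markers summed to 12.8 to 13.9 and 13.1 to 15.2 CPM. Of 6 tested fibroblast markers 2 were higher and 2 lower, with log2 fold changes from -1.88 to 1.67.

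Recombination, Fanconi and checkpoint genes were mostly lower in sh-CBX7 or not called. Of the 36, 18 fell (50%), 2 rose (5.56%) and 16 did not pass the test at an edgeR adjusted p below 0.05. Across all 14573 tested genes 27.2% fell, 26.1% rose and 53.3% changed in either direction. The counts by role and by list given below stand beside these shares. The median log2 fold change was -0.24 over the 36 genes and -0.01 over all tested genes. Changes were modest in size: only FANCE and FANCG passed 1 on the log2 scale, and the median absolute log2 fold change was 0.28 over the 36 genes against 0.33 over all tested genes. Among the 8180 tested genes between the lowest and the highest mean level of the 36 (2.90 to 61.6 CPM), 29.5% fell and 25.6% rose.

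**Figure D1:**
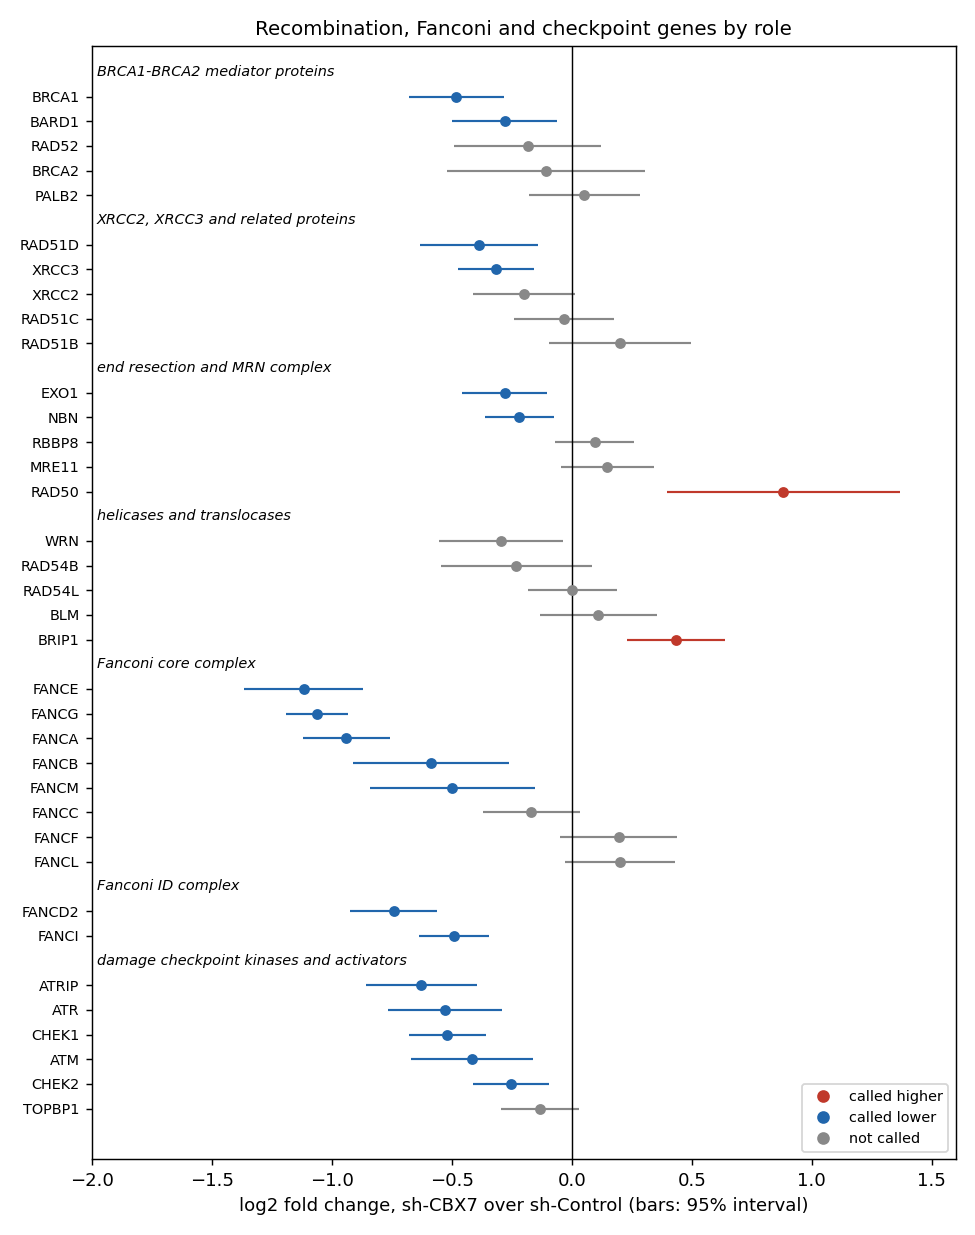
Log2 fold change of each of the 36 genes in sh-CBX7 over sh-Control (horizontal axis), grouped by role, with bars for the 95% interval; blue marks genes called lower, red genes called higher and grey genes not called. The lowest points are FANCE at -1.12, FANCG at -1.06 and FANCA at -0.94, and the red points are RAD50 at 0.88 and BRIP1 at 0.43.

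For 17 of the 36 genes every sh-CBX7 library lay below every sh-Control library, for 4 every sh-CBX7 library lay above, and for 15 the groups overlapped. Over all tested genes the groups did not overlap for 59%, with sh-CBX7 lower for 29.9% and higher for 29.1%. Of the 18 genes called lower, 15 had groups apart and 3 (BARD1, EXO1 and FANCM) had overlapping groups. Conversely, XRCC2 and WRN lay lower and RAD51B and FANCL higher without overlap, but did not pass the test. Scatter within a group had a median coefficient of variation of 10.4% in sh-Control, from 3.92% for BRIP1 to 22.4% for BRCA2, and of 7.04% in sh-CBX7, from 0.346% for FANCG to 29.2% for RAD50.

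The Fanconi core complex, which carries the ubiquitin ligase of the pathway, held the largest falls: 5 of its 8 measured subunits fell and 0 rose, with a median log2 fold change of -0.54. FANCG, an adaptor subunit that binds FANCA, had 80.5, 76.4 and 82.7 CPM in the sh-Control libraries and 38.4, 38.1 and 38.2 CPM in the sh-CBX7 libraries. The groups lay far apart, and FANCG was at 47.9% of its control level (log2 fold change -1.06, SE 0.07, edgeR adjusted p = 8.19e-12). Per kilobase of full exonic length, with bases shared with other genes included, it was also the most abundant of the 36 transcripts in sh-Control, at 22.1 CPM per kilobase. FANCE, which bridges the core complex to FANCD2, had 16.6, 14.6 and 18.8 CPM in sh-Control and 8.49, 7.49 and 6.998 CPM in sh-CBX7. The groups did not overlap, and its log2 fold change was -1.12 (edgeR adjusted p = 1.32e-07, SE 0.13).

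FANCA, the subunit most often mutated in Fanconi anaemia, had 34.9, 31.5 and 32.0 CPM in sh-Control and 17.8, 17.2 and 16.2 CPM in sh-CBX7. No library of one group reached the other, and FANCA was at 52.1% of its control level (log2 fold change -0.94, SE 0.09, edgeR adjusted p = 1.38e-08). FANCB, the X-linked subunit, lay at 5.41, 5.88 and 6.87 CPM in sh-Control and 4.35, 3.80 and 3.89 CPM in sh-CBX7, again without overlap (log2 fold change -0.59, SE 0.17, edgeR adjusted p = 0.00467). FANCM, the translocase that anchors the complex to DNA, ranged from 4.81 to 7.42 CPM in sh-Control and from 4.23 to 4.95 CPM in sh-CBX7, and its lowest control library, sh-Control replicate 1, fell within the sh-CBX7 range. Its call (log2 fold change -0.498, edgeR adjusted p = 0.0201, 0.00138 to 0.117 over the alternatives) was lost without sh-Control replicate 2 (0.117), sh-Control replicate 3 (0.0618), sh-CBX7 replicate 1 (0.0640) or sh-CBX7 replicate 3 (0.0696).

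The other core subunits were not called. FANCL, which holds the ligase activity itself, had 12.0, 12.6 and 11.6 CPM in sh-Control and 13.1, 15.8 and 12.8 CPM in sh-CBX7. FANCL libraries of sh-CBX7 thus lay above those of sh-Control, but the log2 fold change of 0.20 did not pass the test (edgeR adjusted p = 0.155), with a 95% interval (normal, from its SE) of -0.03 to 0.43. FANCF, an adaptor, had a log2 fold change of 0.196 (interval -0.05 to 0.44) and FANCC -0.17 (interval -0.37 to 0.03). These intervals leave out a fall of the size seen for FANCA, FANCE or FANCG.

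The targets of the core complex fell together. FANCD2 had 30.9, 35.6 and 36.9 CPM in sh-Control and 21.7, 19.6 and 20.5 CPM in sh-CBX7. Its groups were apart, with a log2 fold change of -0.74 (edgeR adjusted p = 5.13e-07, SE 0.09). FANCI, its partner in the clamp, had 55.7, 60.3 and 63.1 CPM in sh-Control and 40.1, 45.9 and 41.5 CPM in sh-CBX7. FANCI was at 71.2% of its control level (log2 fold change -0.49, SE 0.07, edgeR adjusted p = 7.69e-06), also without overlap.

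**Figure D2:**
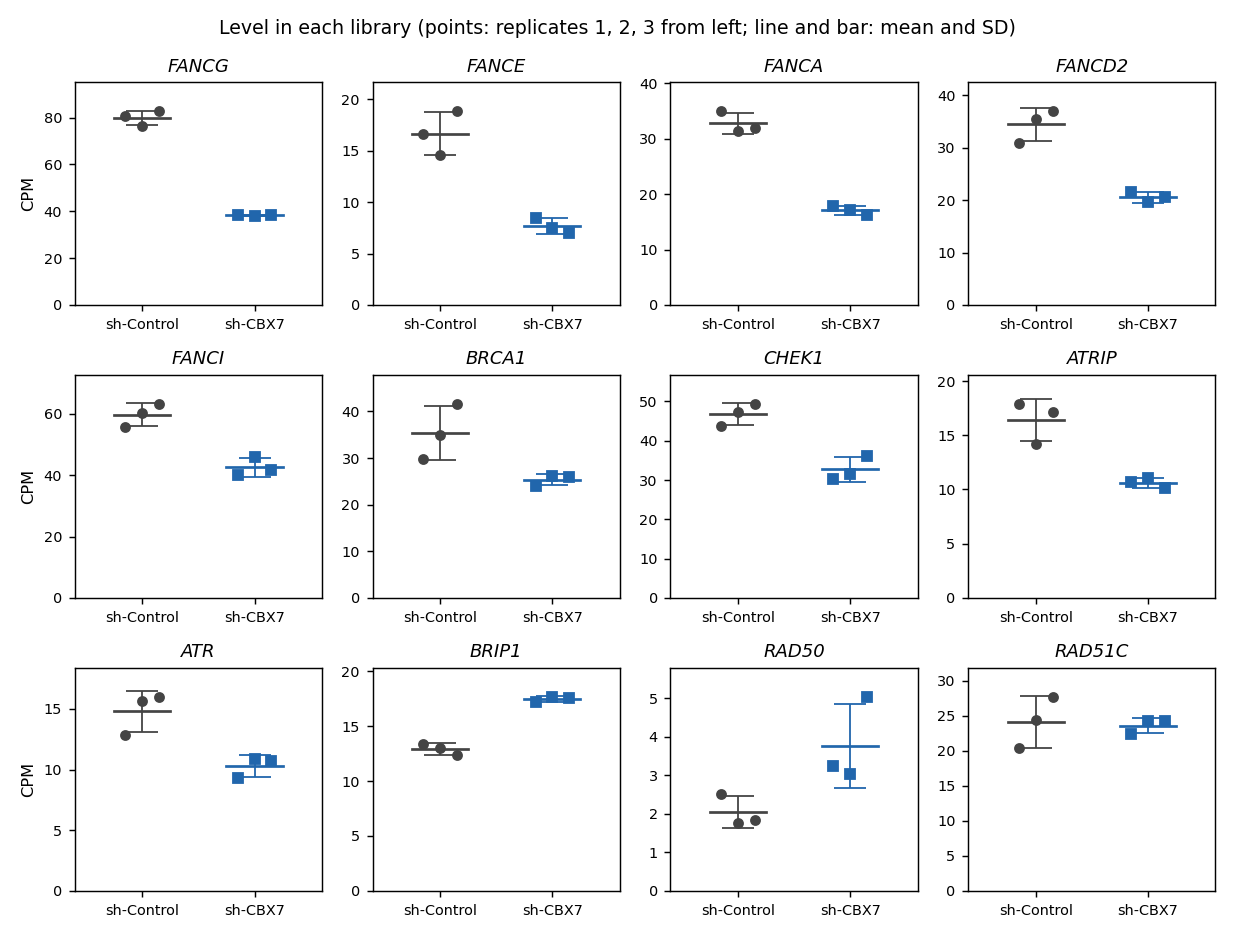
Level in CPM (vertical axes, each from 0) of 12 genes in each library, with sh-Control as grey circles and sh-CBX7 as blue squares; lines and bars are the mean and SD of 3 libraries. FANCG, FANCE, FANCA, FANCD2, FANCI, BRCA1, CHEK1, ATRIP and ATR lie lower in sh-CBX7 without overlap, BRIP1 and RAD50 higher without overlap, and RAD51C overlaps.

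Because the Fanconi genes moved in size from no call to over 2-fold, their promoters were set side by side. RefSeq sequence of GRCh38.p14, from 250 bases before to 50 bases after the start, was matched for 32 of the 36 genes, and NBN, RAD54B, WRN and FANCI were not matched. FANCG (chr9:35079893-35080192, minus strand), FANCE (chr6:35452088-35452387, plus strand) and FANCA (chr16:89816598-89816897, minus strand) are shown as the members that fell furthest. FANCD2 (chr3:10026187-10026486, plus strand) is shown as a faller with an E2F word at its start, and TOPBP1 (chr3:133661892-133662191, minus strand) as an uncalled gene with such a word at its start. Capitals mark E2F words.
FANCG: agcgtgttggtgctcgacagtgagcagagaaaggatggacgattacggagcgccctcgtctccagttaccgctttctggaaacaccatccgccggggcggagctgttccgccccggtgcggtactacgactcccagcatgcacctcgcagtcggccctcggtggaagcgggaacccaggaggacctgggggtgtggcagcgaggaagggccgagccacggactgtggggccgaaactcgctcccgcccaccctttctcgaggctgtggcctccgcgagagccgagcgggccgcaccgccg
FANCE: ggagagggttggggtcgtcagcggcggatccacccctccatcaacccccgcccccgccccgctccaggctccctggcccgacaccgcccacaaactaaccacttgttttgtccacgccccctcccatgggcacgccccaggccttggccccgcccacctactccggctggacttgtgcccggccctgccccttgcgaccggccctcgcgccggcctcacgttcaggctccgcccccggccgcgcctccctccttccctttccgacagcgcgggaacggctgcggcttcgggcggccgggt
FANCA: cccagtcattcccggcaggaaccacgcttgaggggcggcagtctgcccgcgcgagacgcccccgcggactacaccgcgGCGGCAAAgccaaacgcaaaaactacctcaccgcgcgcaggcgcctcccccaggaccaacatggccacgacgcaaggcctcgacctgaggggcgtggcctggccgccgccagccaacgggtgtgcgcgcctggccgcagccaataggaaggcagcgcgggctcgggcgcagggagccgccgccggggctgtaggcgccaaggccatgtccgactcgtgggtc
FANCD2: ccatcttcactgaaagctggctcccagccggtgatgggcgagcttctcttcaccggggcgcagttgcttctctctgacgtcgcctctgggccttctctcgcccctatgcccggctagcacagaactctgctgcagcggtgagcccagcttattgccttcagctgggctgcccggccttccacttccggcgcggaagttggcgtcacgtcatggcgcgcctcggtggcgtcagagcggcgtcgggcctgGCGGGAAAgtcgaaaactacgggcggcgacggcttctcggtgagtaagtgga
TOPBP1: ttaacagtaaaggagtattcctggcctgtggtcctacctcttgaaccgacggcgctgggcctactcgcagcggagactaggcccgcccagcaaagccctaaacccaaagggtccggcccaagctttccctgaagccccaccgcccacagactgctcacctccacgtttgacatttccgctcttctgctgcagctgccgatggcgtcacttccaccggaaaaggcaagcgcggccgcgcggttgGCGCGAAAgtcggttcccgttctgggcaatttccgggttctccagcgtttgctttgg

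The E2F words searched on both strands were TTTGGCGC, TTTCCCGC, TTTCGCGC and TTTGCCGC. They stood in 6 of the 32 promoters (18.8%), those of EXO1, FANCA, FANCC, FANCD2, TOPBP1 and XRCC2, against 3.31% of all 35116 promoters and 5.29% of the promoters of 10368 tested genes. Within the 32, 3 of 16 promoters of genes called lower held one, and 3 of 16 of the other members did. FANCG and FANCE, the genes with the lowest adjusted p and the lowest log2 fold change of the 36, held none in this window. So few promoters and exact words allow no reading of this split, and a part of E2F in the falls was not tested. Some RefSeq starts also differ from those of the deposited table. The RAD51B window (chr14:67823291-67823590) lay inside the gene, which starts at 67819779 there. Much further inside lay the windows of FANCC (chr9:95317660-95317959), which held E2F words, RBBP8 (chr18:22933078-22933377) and RAD52 (chr12:949645-949944). These genes start at 95426796, 22798261 and 990053 there. The BRCA1 window (chr17:43170278-43170577) lay wholly upstream of the first base of the gene there, 43170245. The word CCAAT stood in 13 of the 32 (40.6%, against 34.6% of all promoters and 36.6% of those of tested genes), and the cell cycle element TTTGAA or TTCGAA in 3 (9.38%, against 16.4% and 10.9%). Each promoter was counted once per kind of word, whether or not words overlapped, and a match is a description of these letters only.

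Checkpoint genes formed the other block that fell, with 5 of 6 lower, 0 higher and a median log2 fold change of -0.47. ATRIP, the partner that brings ATR to single-stranded DNA, had 17.9, 14.2 and 17.2 CPM in sh-Control and 10.7, 11.1 and 10.1 CPM in sh-CBX7. Its groups were apart (log2 fold change -0.63, SE 0.12, edgeR adjusted p = 0.000104). ATR itself had 12.9, 15.6 and 15.95 CPM in sh-Control and 9.29, 10.9 and 10.7 CPM in sh-CBX7, lower without overlap (log2 fold change -0.53, SE 0.12, edgeR adjusted p = 0.000876). CHEK1, the effector kinase of ATR, had 43.8, 47.4 and 49.3 CPM in sh-Control and 30.3, 31.6 and 36.2 CPM in sh-CBX7. CHEK1 was thus at 69.8% of its control level (log2 fold change -0.52, SE 0.08, edgeR adjusted p = 1.27e-05), with no library in the range of the other group.

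On the arm that answers to open breaks, ATM lay at 9.92, 12.9 and 10.9 CPM in sh-Control and at 8.54, 7.85 and 8.86 CPM in sh-CBX7. The groups did not overlap (log2 fold change -0.42, SE 0.13, edgeR adjusted p = 0.00947, 0.00198 to 0.0724 over the alternatives), but the call was lost without sh-Control replicate 2 (0.0724). CHEK2, the effector kinase of ATM, fell less far, from 33.2 to 37.0 CPM in sh-Control to 28.3 to 29.7 CPM in sh-CBX7 (log2 fold change -0.25, SE 0.08, edgeR adjusted p = 0.0118, 0.00694 to 0.0494 over the alternatives). The CHEK2 call was kept only narrowly without sh-CBX7 replicate 2 (0.0494). TOPBP1, which activates ATR, was not called (36.7, 44.9 and 43.4 CPM against 36.4, 39.9 and 37.8 CPM). Its log2 fold change was -0.13 (edgeR adjusted p = 0.187, 0.0143 to 0.494 over the alternatives), and without sh-Control replicate 1 it was -0.22 and passed (0.0143).

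BRCA1 and its partners moved unequally: 2 of 5 fell and 0 rose, with a median log2 fold change of -0.18. BRCA1, which promotes end trimming and recruits PALB2, had 29.9, 34.9 and 41.5 CPM in sh-Control and 24.1, 26.1 and 25.9 CPM in sh-CBX7. The groups were apart although the control libraries were spread, and the log2 fold change was -0.48 (edgeR adjusted p = 0.000357, SE 0.10). BARD1, which forms a ubiquitin ligase with BRCA1, ranged from 17.2 to 21.8 CPM in sh-Control and from 14.95 to 17.2 CPM in sh-CBX7, and the groups met at their edges. Its call is the weakest of the 20 (log2 fold change -0.28, SE 0.11, edgeR adjusted p = 0.0377, 0.00636 to 0.214 over the alternatives): it was lost without sh-Control replicate 2 (0.214), sh-Control replicate 3 (0.0586), sh-CBX7 replicate 2 (0.101) or sh-CBX7 replicate 3 (0.123), and under 3 other settings.

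PALB2, the bridge between BRCA1 and BRCA2, had 11.5, 13.3 and 13.9 CPM in sh-Control and 12.4, 14.9 and 12.9 CPM in sh-CBX7. Those ranges overlapped, with a log2 fold change of 0.05 (interval -0.18 to 0.28). BRCA2, the tumour suppressor that PALB2 brings to breaks, lay at 3.37, 5.17 and 5.09 CPM in sh-Control and at 3.34, 3.74 and 5.59 CPM in sh-CBX7. With 56 to 99 counts per library BRCA2 is a thinly covered gene, and its interval from -0.52 to 0.30 holds 0 as well as the BRCA1 value of -0.48. RAD52, which anneals strands, had a log2 fold change of -0.18 (interval -0.49 to 0.12).

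RAD51B, RAD51C, RAD51D, XRCC2 and XRCC3 are related ATP-binding proteins that act in complexes during strand exchange, and 2 of these 5 fell while 0 rose. RAD51D had 23.0, 17.3 and 17.2 CPM in sh-Control and 14.1, 13.2 and 16.8 CPM in sh-CBX7. The groups just missed each other (log2 fold change -0.39, SE 0.13, edgeR adjusted p = 0.0127, 0.00288 to 0.0912 over the alternatives). That call was lost without sh-Control replicate 1 (log2 fold change -0.23, adjusted p = 0.0912), sh-CBX7 replicate 1 (0.0532) or sh-CBX7 replicate 2 (0.0738). XRCC3 had 51.3, 45.9 and 46.4 CPM in sh-Control and 35.5, 42.5 and 37.4 CPM in sh-CBX7, without overlap (log2 fold change -0.32, SE 0.08, edgeR adjusted p = 0.00205).

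RAD51C, which binds XRCC3 in one such complex, had 20.3, 24.3 and 27.6 CPM in sh-Control and 22.3, 24.2 and 24.2 CPM in sh-CBX7. The sh-CBX7 values fell inside the control range, and its log2 fold change was -0.03 (interval -0.24 to 0.17). XRCC2 had -0.20 (interval -0.41 to 0.01) and RAD51B 0.20 (interval -0.10 to 0.50), neither called.

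Of 5 end trimming genes 1 rose, 2 fell and 2 were not called, beside 26.1% and 27.2% of all tested genes. NBN, the subunit of the MRE11 complex that binds ATM, had 61.6, 73.7 and 63.1 CPM in sh-Control and 56.3, 59.7 and 54.8 CPM in sh-CBX7. The groups were close but apart (log2 fold change -0.22, SE 0.07, edgeR adjusted p = 0.0166, 0.00114 to 0.135 over the alternatives). The call was lost without sh-Control replicate 2 (log2 fold change -0.14, adjusted p = 0.135), sh-CBX7 replicate 1 (0.0577) or sh-CBX7 replicate 3 (0.0784), and with upper quartile factors (0.0617). EXO1, the long-range exonuclease, ranged from 33.5 to 42.7 CPM in sh-Control and from 29.7 to 34.0 CPM in sh-CBX7, with 1 library on each side in the overlap. EXO1 had a log2 fold change of -0.28 (edgeR adjusted p = 0.0122, SE 0.09, 0.000211 to 0.102 over the alternatives), and its call was lost without sh-Control replicate 3 (0.102) or sh-CBX7 replicate 2 (0.0736).

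MRE11, the nuclease, had 20.3, 24.6 and 24.5 CPM in sh-Control and 26.9, 24.0 and 26.0 CPM in sh-CBX7. The ranges overlapped, and the log2 fold change of 0.15 (interval -0.04 to 0.34) was not called. RBBP8, which encodes the MRE11 cofactor CtIP, had 0.10 (interval -0.07 to 0.26). RAD50, the ATPase of the complex, had 42, 32 and 30 counts in sh-Control and 61, 50 and 89 counts in sh-CBX7, or 2.52, 1.76 and 1.84 against 3.24, 3.02 and 5.02 CPM. RAD50 thus rose without overlap (log2 fold change 0.88, SE 0.25, edgeR adjusted p = 0.00458, 0.000623 to 0.0668 over the alternatives), but the call rests on sh-CBX7 replicate 3: without that library the log2 fold change was 0.62 and the call was lost (0.0668). Only 20.3% of RAD50 exonic bases belong to no other gene, as given below.

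Among the helicases and translocases 1 of 5 rose and 0 fell. BRIP1, the BRCA1-associated helicase also known as FANCJ, had 13.4, 13.0 and 12.4 CPM in sh-Control and 17.2, 17.6 and 17.6 CPM in sh-CBX7. This was the firmest rise of the 36 genes, with tight groups well apart (log2 fold change 0.43, SE 0.10, edgeR adjusted p = 0.00126, at most 0.00965 over the alternatives). WRN, the helicase lost in Werner syndrome, had 8.23, 8.91 and 9.39 CPM in sh-Control and 7.48, 6.58 and 7.51 CPM in sh-CBX7. WRN was lower in each library without passing the test (log2 fold change -0.296, edgeR adjusted p = 0.0644, 0.0441 to 0.186 over the alternatives), and passed without sh-Control replicate 1 (0.0441). BLM, which dissolves crossed strands, had a log2 fold change of 0.11 (interval -0.13 to 0.35), the translocase RAD54L 0.00 (interval -0.18 to 0.19) and RAD54B -0.23 (interval -0.54 to 0.08).

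Several of these genes share exons with a neighbour, which limits what a count for them means. In the GENCODE 29 annotation, whose gene starts and ends the deposited table carries, 27 of the 36 genes had at least 90% of their exonic bases to themselves. RAD50 shared 79.7% with AC116366.3, a readthrough gene on the same strand that held 0 to 3 counts per library. XRCC3 shared 76.7% with KLC1, a kinesin light chain gene on the opposite strand with 707 to 882 counts and a log2 fold change of 0.10. RAD54B shared 59.1% with FSBP on its own strand, which held 1 to 12 counts. Per kilobase of full exonic length, RAD50 had the lowest sh-Control level of the 36, 0.209 CPM per kilobase, next to 0.370 for BRCA2 and 0.469 for ATM. That length includes the shared exons, so the RAD50 value and its rank are too low if reads there were not counted. How the counting treated reads in shared exons, and whether it used strand, is not given in the sources used here, so values for RAD50, XRCC3 and RAD54B are uncertain.

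The overlap was smaller for the called genes ATRIP, FANCA and ATR. ATRIP shared 27.9% with TREX1, which was listed at 0 in each library, FANCA 23.6% with the opposite-strand ZNF276 (138 to 182 counts, log2 fold change -0.01), and ATR 16.4% with a processed pseudogene listed at 0. RAD54L shared 25.1% with LRRC41, which had 1341 to 2607 counts and was lower in sh-CBX7 (log2 fold change -0.77, edgeR adjusted p = 5.63e-09). FANCL shared 18.7% with VRK2, also lower (log2 fold change -0.69, edgeR adjusted p = 5.59e-05), while neither RAD54L nor FANCL was called. FANCE and FANCG shared no exonic base with another gene.

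**Figure D3:**
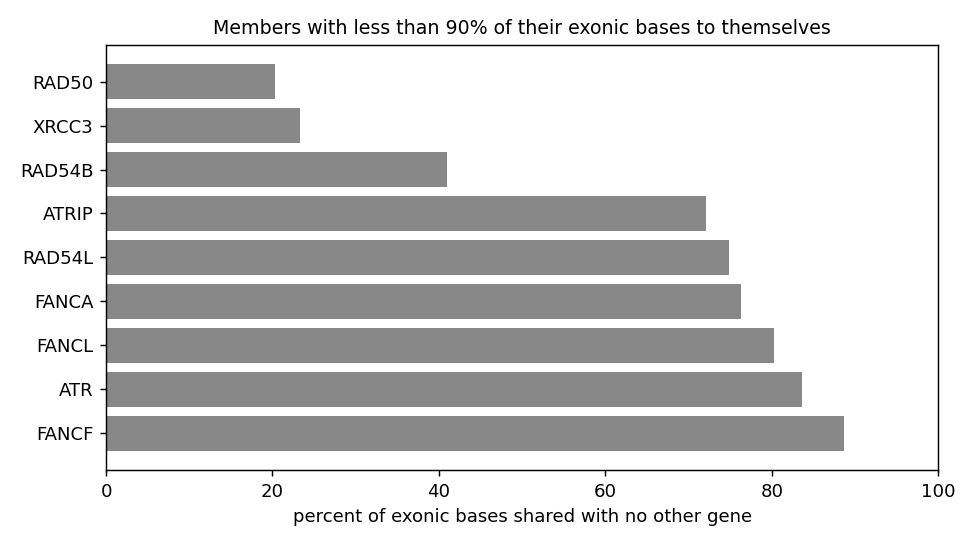
Percent of exonic bases that belong to no other gene of GENCODE 29 (horizontal axis, from 0 to 100) for the 9 members with less than 90%. RAD50 at 20.3%, XRCC3 at 23.3% and RAD54B at 40.9% are the members under 50%.

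Many repair genes start head to head with another gene and share its promoter region. By the coordinates of the deposited table, where a gene starts at its most upstream annotated base, 14 of the 36 had a gene on the opposite strand starting within 1000 bases upstream, and 7 of these neighbours passed the filter. Of the 7 neighbours 3 were higher, 2 lower and 2 not called, where 26.1% of all tested genes were higher and 27.2% lower, so nothing is read from these few pairs and their values are given as a description. FANCD2 starts 49 bases from CIDECP, a transcribed pseudogene with 284, 304 and 322 counts in sh-Control and 429, 412 and 387 in sh-CBX7. CIDECP was higher (log2 fold change 0.38, SE 0.10, edgeR adjusted p = 0.00355) where FANCD2 was lower. The FANCD2 promoter printed above spans the gap between these starts.

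Neighbours of FANCB and XRCC3 were higher too. MOSPD2, which starts 372 bases from FANCB, had 200, 278 and 207 counts in sh-Control and 299, 283 and 295 in sh-CBX7 (log2 fold change 0.31, SE 0.11, edgeR adjusted p = 0.0270). ZFYVE21, 226 bases from XRCC3, was higher by 0.27 (SE 0.07, edgeR adjusted p = 0.00201). NBR1, 236 bases from the most upstream BRCA1 start, had a log2 fold change of 0.10 (edgeR adjusted p = 0.1998) and FKBP3, 621 bases from FANCM, -0.05 (edgeR adjusted p = 0.596), both uncalled beside a gene that fell. PALB2 and RAD52 were not called. DCTN5, a dynactin subunit 82 bases from PALB2, fell from 52.5 to 28.1 CPM (edgeR adjusted p = 6.38e-09, log2 fold change -0.90, SE 0.08). ERC1, 456 bases from the most upstream RAD52 start, had -0.80 (SE 0.09, edgeR adjusted p = 2.35e-07). The RefSeq window of RAD52 (chr12:949645-949944) lay far from that start, 990053, so this pair may not share a promoter region.

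**Figure D4:**
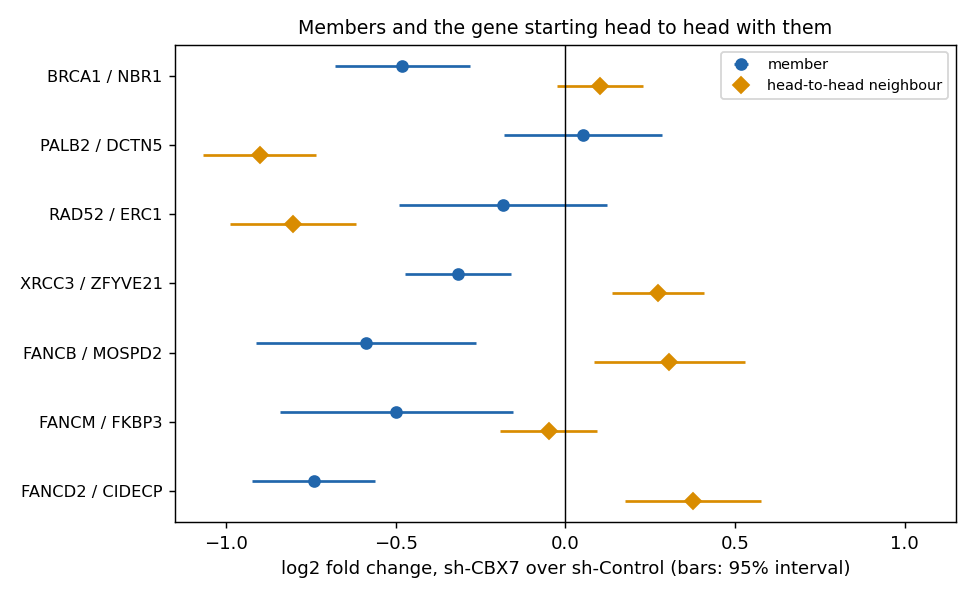
Log2 fold change in sh-CBX7 over sh-Control (horizontal axis, bars for the 95% interval) for 7 members (circles) and the tested gene that starts head to head with each (diamonds). Starts are the most upstream annotated bases. FANCD2, FANCB and XRCC3 lie below 0 and their neighbours above 0, while DCTN5 at -0.90 and ERC1 at -0.80 lie well below PALB2 and RAD52.

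By position, the 4 members on chromosome 3 were FANCD2, ATR and ATRIP, which fell, and TOPBP1, which was not called. The 4 on chromosome 17 were BRCA1 and RAD51D, which fell, BRIP1, which rose, and RAD51C, which was not called. Chromosome 11 also held 4, with ATM and CHEK1 lower and MRE11 and FANCF not called.

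Further genes of the same pathways were taken from lists of other members. Of 46 other homologous recombination and Fanconi genes 44 were tested, 18 fell and 6 rose, with a median log2 fold change of -0.19. Over all tested genes 27.2% fell and 26.1% rose. SEM1, the small BRCA2-binding protein also found in the proteasome, went from 110.0 to 51.8 CPM (edgeR adjusted p = 5.22e-10, log2 fold change -1.09, SE 0.09). UHRF1, a chromatin protein that also binds crosslinks, had -0.85 and SPIDR, a scaffold for recombination, -0.86 (edgeR adjusted p = 9.60e-10 and 4.01e-09). Damage signalling adaptors fell in 13 of 26 and rose in 6 (median -0.27), beside the same 27.2% and 26.1%. TIMELESS, of the fork protection complex, had -0.77 and MDC1, which binds marked chromatin at breaks, -0.55, whereas SHLD2 of the shieldin complex, which blocks end trimming, had 0.63, each with an edgeR adjusted p of at most 3.65e-06.

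End joining, the route that competes with recombination, was counted alongside. Of 11 tested genes of 12, 5 fell and 2 rose (median -0.11), beside 27.2% and 26.1% of all tested genes. The DNA-dependent protein kinase of this route was among those that fell. PRKDC, the catalytic subunit, had a log2 fold change of -0.67, and the Ku subunits XRCC6 and XRCC5 had -0.63 and -0.37 (edgeR adjusted p = 7.17e-09, 1.06e-09 and 8.75e-06).

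Because recombination and Fanconi genes are expressed with the cell cycle, cell cycle lists are given beside them. Over all tested genes 27.2% fell and 26.1% rose. Of 46 G1/S and replication genes 35 fell and 0 rose by edgeR (median -0.41), among them TK1 at -1.57, MCM6 at -1.11 and UNG at -1.22. Of 37 G2/M and mitosis genes 31 fell and 1 rose (median -0.47), among them TOP2A at -1.14, PLK1 at -0.94 and CDC20 at -0.89. The falls of the 36 genes thus stood beside lower cell cycle transcripts, and the part of these in the result was not tested. In bulk RNA, fewer cells in a phase and less RNA per cell cannot be told apart.

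**Figure D5:**
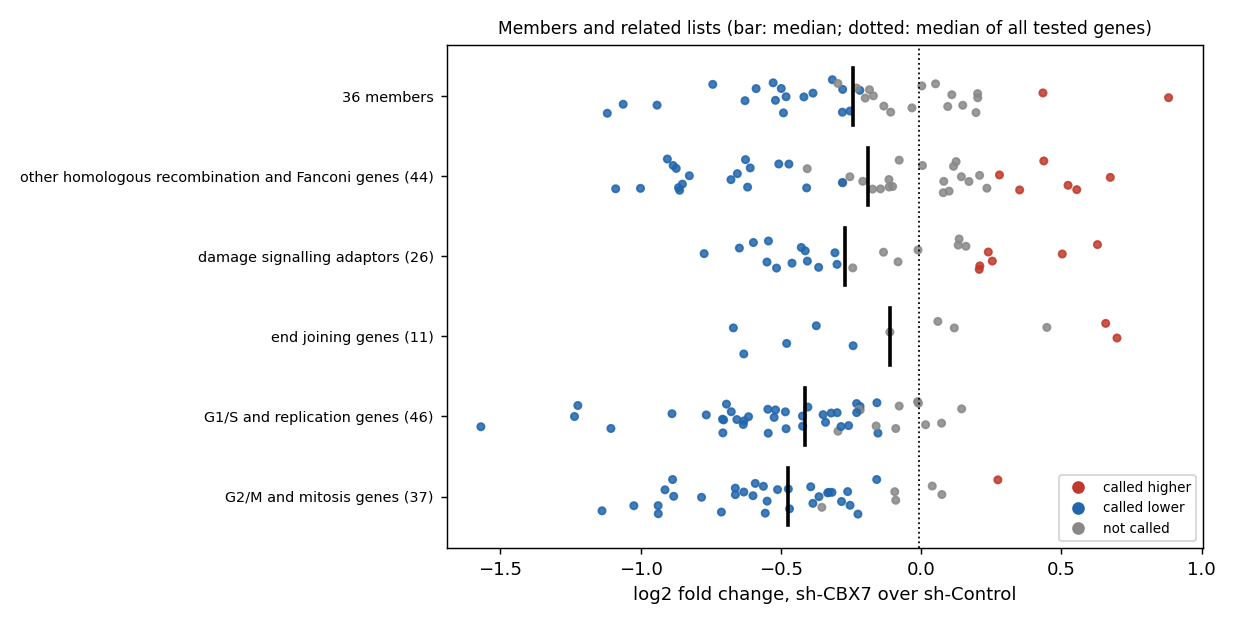
Log2 fold change in sh-CBX7 over sh-Control (horizontal axis) of the 36 members and of the tested genes of 5 other lists, with vertical bars at each list's median and a dotted line at the median of all tested genes (-0.01). Medians run from -0.11 for end joining to -0.47 for G2/M and mitosis genes, with the members at -0.24.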

How the data were processed

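Read counts per gene were measured in 6 libraries, 3 sh-Control and 3 sh-CBX7, of 16384151 to 18868874 counts. The authors deposited raw counts without normalization. Per the submitters' processing notes, HISAT2 2.0.5, featureCounts 1.5.0-p3, FastQC and Trimmomatic were used and the build is hg19, while all 58735 genes have GENCODE 29 (GRCh38) starts and ends. Per the file headers the target columns read siCBX7; they were matched to sh-CBX7 by target and number.

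edgeR 4.0.16 (R 4.3.3) was run on all genes: filterByExpr (14573 kept), TMM, the quasi-likelihood test without pairing, and Benjamini-Hochberg adjustment, called below 0.05. SE is the log2 fold change over the square root of F. Tests were checked on simulated data in which few genes changed, unlike in these libraries, so their behaviour under broad change was not checked. Alternatives were other factors and filters, a gene length offset, DESeq2 1.42.0, limma 3.58.1 voom, a replicate block and leaving out each library. Members and lists were chosen with earlier results of these data known. All members may be named, as may the 3 smallest p-values of each other list and head-to-head neighbours. Libraries sharing a number had correlations of deviations of 0.0858, 0.0953 and 0.0378, so the numbers were not taken as pairs. Genes sharing exons with members, and the highest markers, were named after their values were seen.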

Additional observations from a re-analysis of the deposited data

How the results depend on the processing

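Of the 20 called members, 13 kept their call in each of 15 alternatives (12 lower, 1 higher); 7 lost it at least once and 0 reversed. Of the 16 uncalled members, 2 (WRN and TOPBP1) passed without sh-Control replicate 1 and 4 changed sign around 0. RAD51C was 0.017 with upper quartile factors, RAD54L -0.0035 without a low count filter and -0.048 with the length offset. Without 1 library these ran from -0.14 to 0.072 for RAD51C, -0.088 to 0.091 for RAD54L, -0.031 to 0.10 for PALB2 and -0.36 to 0.040 for BRCA2. Upper quartile factors moved the members' median from -0.24 to -0.19, and moved the median of all tested genes likewise, from -0.006 to 0.043. Without 1 library 14 to 19 members were lower and 1 to 2 higher, and the median ran from -0.27 to -0.21; only the omission of sh-CBX7 replicate 3 left 1 higher. With the replicate number as a block 2 members were higher and 18 lower, and 3972 of all genes were higher and 4126 lower, against 3799 and 3967; each library correlated best with its own number, as a hint from the data and not the design. Low counts, at most 135 per library, limit RAD50, BRCA2, FANCB, RAD52, RAD51B and FANCM.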

Other observations

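Transcription factors and pocket proteins of the cell cycle govern many repair genes. Of 22 tested, 7 fell and 5 rose by edgeR, near the shares of 27.2% and 26.1% over all tested genes, and the median log2 fold change was -0.02. MYBL2, an activator of late cell cycle genes, went from 273 to 424 CPM (edgeR adjusted p = 2.05e-09, log2 fold change 0.64, SE 0.06). FOXM1, an activator of mitotic genes, had -0.63 and E2F4, the E2F factor of repressor complexes, -0.58 (edgeR adjusted p = 2.13e-08 and 4.92e-08).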
